A study of Rattus norvegicus with 12 samples.

Results

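The elastic fibre genes described here are Eln, Fbn1, Fbn2, Fbln1, Fbln2, Fbln5, Lox, Loxl1, Mfap4 and Mfap5. They were taken by symbol from the deposited count table, in which all 10 were present among 33294 gene rows. The cells were PAC1, a smooth muscle line of rat pulmonary artery, grown under differentiated-state conditions in DMEM with Glutamax and 10% FBS. Every group received 90 pmol of siRNA, again after 24 h, and was harvested 48 h later per the labels. The study itself gives a longer schedule for this experiment. The 3 control libraries came from cells given the control siRNA C2, and the 3 libraries of each knockdown from cells given an siRNA against RBPMS, RBFOX2 or QKI (gene symbol Qk), which are RNA-binding proteins that regulate splicing. All groups share the cell line and the culture, and differ only in the siRNA. The samples are from a single cell line with a single siRNA sequence per target, so effects of a target and of its siRNA sequence cannot be told apart.

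An elastic fibre has a core of cross-linked elastin, encoded by Eln, laid down on a scaffold of microfibrils built from fibrillins, which Fbn1 and Fbn2 encode. The fibulins, among them the products of Fbln1, Fbln2 and Fbln5, bind elastin or microfibrils, and fibulin-5 helps to bring tropoelastin and its cross-linking enzymes to the scaffold. Lox and Loxl1 encode lysyl oxidases, which oxidise lysines of tropoelastin so that cross-links can form, and Mfap4 and Mfap5 encode glycoproteins associated with microfibrils. In an artery wall, smooth muscle cells make most of the elastic lamellae.

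The siRNAs define the groups, so the sense strand of each is given 5′ to 3′, in lower case throughout because no part of them is set apart.
C2: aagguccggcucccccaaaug
RBPMS: ggcggcaaagccgagaaggcgaaca
RBFOX2: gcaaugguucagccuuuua
QK: ggacuuacagcuaaacaac

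Library totals ran from 111 to 152 M counts, and the 10 genes together held between 0.163% and 0.286% of a library. Each siRNA target was lower in its own knockdown than in control: Rbpms was at 7.21 against 40.7 CPM (counts scaled to a common total of 1 M, on totals scaled by TMM), Rbfox2 at 37.3 against 154 CPM and Qk at 26.6 against 233 CPM, each a mean of 3 libraries. The targets also moved in other knockdowns. Rbpms was at 23.1 CPM in RBFOX2 knockdown (log2 fold change −0.81, edgeR adjusted p 2.1e-09) and 29.0 CPM in QKI knockdown (−0.49, 9.32e-07). Qk was lower in RBFOX2 knockdown (−0.42, edgeR adjusted p 1.7e-08). Smaller shifts included a rise of Qk (0.18, 0.000297) and a fall of Rbfox2 (−0.12, 0.0193) in RBPMS knockdown. The groups thus differ in more than the level of 1 target. Of 9 smooth muscle markers fixed to check the label, Acta2 (990 CPM) and Tagln (687 CPM) were the highest in control. Myl9 was at 303, Smtn at 126 and Myocd at 22.1 CPM. Des (9.90 CPM), Myh11 (6.48 CPM), Cnn1 (6.43 CPM) and Mylk (4.18 CPM) were low. By the study's account, the control cells here were less differentiated than those of its other RNA-seq experiment. The summed level of 9 smooth muscle markers ran from 2121 to 2185 CPM in control, 1084 to 1193 CPM in RBPMS knockdown, 838 to 936 CPM in RBFOX2 knockdown and 1459 to 1546 CPM in QKI knockdown. The single markers moved both ways: of the 9, 6 were lower and 3 higher in RBPMS knockdown, 5 lower and 2 higher in RBFOX2 knockdown and 5 lower and 3 higher in QKI knockdown at an adjusted p under 0.05. Of all genes tested, 29.0% were lower and 30.4% higher, 30.1% and 30.1%, and 34.0% and 32.9%, in the same order of knockdowns. Of the markers, Acta2 fell by more than 2-fold in RBPMS, RBFOX2 and QKI knockdown (log2 fold change −1.65, −2.11 and −1.16). Cnn1 and Myl9 fell so far in RBPMS (−1.32 and −1.23) and RBFOX2 knockdown (−2.41 and −1.17). Mylk did in RBPMS and QKI knockdown (−1.05 and −1.53) and Tagln in RBFOX2 knockdown (−1.06). Among those that rose were Des, for desmin, in RBPMS and QKI knockdown (log2 fold change 0.65 and 0.98), Myh11, for smooth muscle myosin heavy chain, in RBFOX2 knockdown (1.05) and Myocd, for a coactivator of smooth muscle genes, in QKI knockdown (0.78). Of the markers fixed for other cell types, Ptprc and Adgre1 (0 to 4 counts in a library), Kdr (0 to 6) and Krt18 (0 to 8) were the lowest. Others were counted in the control libraries, among them Cdh5 (788, 1115 and 870 counts), Vwf (151, 253 and 169), Cd68 (117, 147 and 160), Pdgfra (638, 651 and 843), Lum (6000, 5714 and 10129), Cd14 (37.0 CPM) and Krt8 (30.6 CPM). In bulk RNA, fewer cells of a type and less RNA per cell cannot be told apart. Control 3 stood apart for some of these genes: its CPM was 1.66-fold for Eln and 1.45-fold for Fbln5 of the mean CPM of control 1 and control 2. Some results that rest on control are therefore given below with and without control 3, and values given only with it can move too. RBPMS 2 stood apart over all genes, with a chi-square per degree of freedom of 57.8 against RBPMS 1 and 45.6 against RBPMS 3, where the other pair of that group gave 9.27 and pairs within the other groups 4.64 to 21.5. Without RBPMS 2, the counts of elastic fibre genes in RBPMS knockdown given below were the same, with 7 past the test and 4 past 2-fold, and the log2 fold changes were −0.89 for Eln, −0.41 for Fbn1, 2.22 for Fbln1, 0.71 for Fbln2, −2.19 for Fbln5, 1.38 for Lox, 0.02 for Loxl1, −1.40 for Mfap4 and 0.72 for Mfap5.

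Knockdown of each regulator shifted most of the tested elastic fibre genes, but in both directions and with opposite directions among the fibulins. Fbln5 was lower and Fbln1, Fbln2 and Lox were higher than in control in all 3 knockdowns, and Eln was lower in all 3. The 3 comparisons use the same control libraries, so they are not independent. The share of all genes that moved alike in all 3 was not counted. Of the 10 genes, 9 had enough counts to be tested and Fbn2 did not. In RBPMS knockdown, 3 of these 9 genes were higher and 4 lower than in control at an adjusted p under 0.05 (edgeR's quasi-likelihood test with Benjamini-Hochberg adjustment over 18438 genes). Of all genes tested, 30.4% were higher and 29.0% lower by that rule. In RBFOX2 knockdown 4 were higher and 2 lower (all genes, 30.1% and 30.1%), and in QKI knockdown 4 were higher and 3 lower (all genes, 32.9% and 34.0%). Most of the genes tested passed in each knockdown, so these counts alone do not set the elastic fibre genes apart. Fbln1, among the higher genes in each, and Mfap5, among those in QKI knockdown, passed the count filter through knockdown libraries. Their part in these counts cannot be weighed against the shares of all genes.

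A change of more than 2-fold was rarer. In RBPMS knockdown Fbln1 and Lox rose and Fbln5 and Mfap4 fell by more than 2-fold, against 5.16% of all tested genes that rose and 4.50% that fell so far. RBFOX2 knockdown raised Fbln1 and Lox and lowered Fbln5 by more than 2-fold, where 6.96% of all genes rose and 4.73% fell by that much. In QKI knockdown Fbln1 and Mfap5 rose and Eln and Fbln5 fell by more than 2-fold, against 8.28% and 9.24% of all genes. Fbln1 and Mfap5, with 4 to 10 and 4 to 18 counts in control, passed the count filter through knockdown libraries. Their rises therefore cannot be weighed against these shares. The median absolute log2 fold change of the 9 genes was 1.07, 0.74 and 0.64 in RBPMS, RBFOX2 and QKI knockdown, against 0.33, 0.33 and 0.42 over all genes tested. The value of 1.07 is that of Mfap5, which had 7 to 28 counts in RBPMS knockdown and did not pass the test. For the 6 genes with a mean of at least 200 counts the medians were 0.80, 0.68 and 0.62, against 0.27, 0.27 and 0.34 over the 12237 genes counted as well. The median of the 9 signed log2 fold changes was −0.01, −0.09 and 0.08, against 0.01 over all genes in each.

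**Figure D1:**
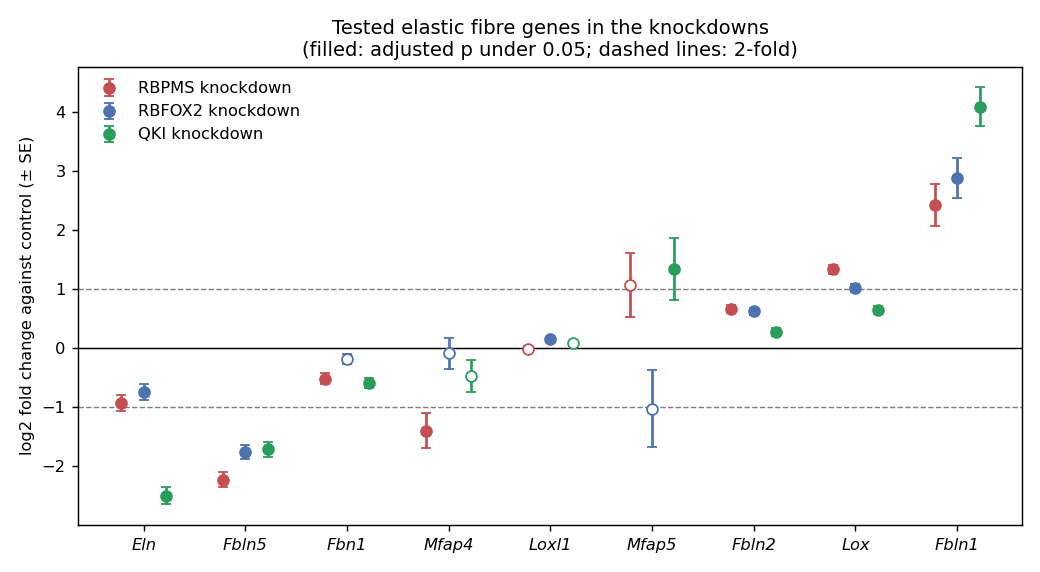
Each point is the log2 fold change of an elastic fibre gene against control, with its SE, in RBPMS, RBFOX2 or QKI knockdown (3 libraries a group); filled points had an adjusted p under 0.05 and dashed lines mark 2-fold. Eln and Fbln5 lie below 0 and Fbln2, Lox and Fbln1 above 0 in all 3 knockdowns, with Eln lowest in QKI knockdown at −2.50.

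Eln, which encodes tropoelastin, the monomer of the elastic core, was measured at 665, 583 and 1040 CPM in the 3 control libraries. It was at 428, 381 and 393 CPM in RBPMS knockdown, at 461, 474 and 433 CPM in RBFOX2 knockdown and at 141, 140 and 124 CPM in QKI knockdown. Every knockdown library lay below every control library, and the QKI libraries lay below all others. Eln fell 5.66-fold in QKI knockdown, from 762 ± 242 to 135 ± 9.49 CPM (SD, n = 3), a log2 fold change of −2.50 (SE 0.145, edgeR adjusted p 6.84e-11). The fall in RBPMS knockdown was smaller, to 401 ± 24.1 CPM (log2 fold change −0.93, SE 0.138, edgeR adjusted p 1.65e-05), as was that in RBFOX2 knockdown, to 456 ± 20.7 CPM (−0.74, SE 0.137, edgeR adjusted p 0.000163). Because control 3 was the highest library, the 3 values were computed again without it, and became −2.21, −0.64 and −0.45 with edgeR adjusted p of 2.69e-14, 2.81e-07 and 1.37e-05. Without control 1 or control 2 the fall in RBPMS knockdown passed 2-fold, at −1.02 and −1.09.

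**Figure D2:**
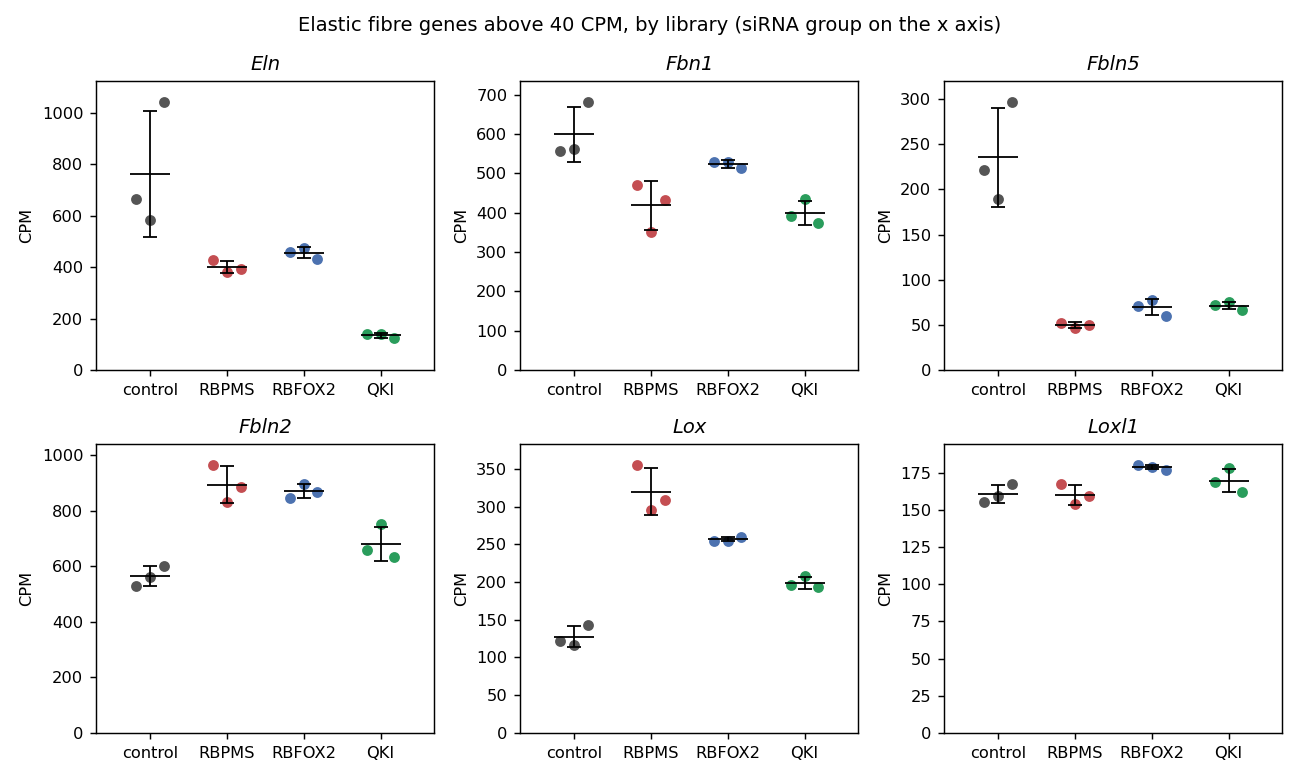
Each dot is the level in CPM (y axis, from 0) of an elastic fibre gene in a library, by siRNA group (x axis), and the bars are the mean and SD of 3 libraries. Eln and Fbln5 are lower and Lox and Fbln2 higher in every knockdown library than in any control library, Loxl1 lies between 154 and 180 CPM throughout, and control 3 is the highest control dot for Eln (1040 CPM) and Fbln5 (296 CPM).

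The fibrillins form the microfibril scaffold. Fbn1 was at 557, 561 and 680 CPM in control, 471, 351 and 433 CPM after RBPMS knockdown, 530, 530 and 513 CPM after RBFOX2 knockdown and 391, 434 and 374 CPM after QKI knockdown. All knockdown libraries lay below the lowest control library, with RBFOX2 nearest to it. Fbn1 fell in RBPMS knockdown (log2 fold change −0.52, SE 0.0886, edgeR adjusted p 7.36e-05) and in QKI knockdown (−0.59, SE 0.0886, edgeR adjusted p 1.58e-05), a change of 1.43-fold and 1.50-fold. In RBFOX2 knockdown the value was −0.19 (SE 0.0883, edgeR adjusted p 0.0699). That value passed the limit without control 1 or control 2 (both −0.24, edgeR adjusted p 0.0443 and 0.0479) and in a fit of the 6 libraries alone (−0.19, adjusted p 0.00692), and was −0.09 without control 3. The values in RBPMS and QKI knockdown were −0.42 and −0.49 without control 3.

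Fbn2, a fibrillin best known from development, was counted 1, 0 and 6 times in control, 0, 0 and 0 times after RBPMS knockdown, 0, 0 and 1 times after RBFOX2 knockdown and 2, 2 and 0 times after QKI knockdown. All libraries but control 3 were at or below 3 counts, taken as the floor here, so no fold change is given and a difference was not detectable at this depth.

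The microfibril-associated glycoproteins Mfap4 and Mfap5 were both sparse. Mfap4, whose product binds microfibrils and tropoelastin, had 80, 61 and 96 counts in control, 26, 30 and 22 after RBPMS knockdown, 94, 61 and 74 after RBFOX2 knockdown and 54, 66 and 38 after QKI knockdown. The RBPMS libraries were the lowest 3 of all 12 libraries, while RBFOX2 and QKI overlapped control. Mfap4 fell in RBPMS knockdown by 1.40 on the log2 scale (SE 0.293, edgeR adjusted p 0.000529), and by 1.25 without control 3. The values were −0.09 in RBFOX2 knockdown (SE 0.260, edgeR adjusted p 0.791) and −0.48 in QKI knockdown (SE 0.269, edgeR adjusted p 0.128), and the latter passed the limit without control 2 (−0.69, adjusted p 0.0365) or without QKI 2 (−0.75, adjusted p 0.0330).

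Mfap5, which encodes the small microfibril protein MAGP-2, had 4, 18 and 7 counts in control, 18, 28 and 7 after RBPMS knockdown, 6, 6 and 2 after RBFOX2 knockdown and 31, 14 and 23 after QKI knockdown. Control 2 lay within the range of the QKI libraries, and the RBPMS and RBFOX2 libraries also overlapped control. Mfap5 rose in QKI knockdown (log2 fold change 1.34, SE 0.525, edgeR adjusted p 0.0330), but this was lost without control 1 (1.03, adjusted p 0.130), control 3 (1.16, 0.107), QKI 1 (1.13, 0.122) or QKI 3 (1.31, 0.0740). In RBPMS knockdown the value was 1.07 (SE 0.538, edgeR adjusted p 0.0973), which passed the limit without control 2 (1.78, adjusted p 0.0255) or RBPMS 3 (1.42, adjusted p 0.0343). In RBFOX2 knockdown it was −1.03 (SE 0.649, edgeR adjusted p 0.183).

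**Figure D3:**
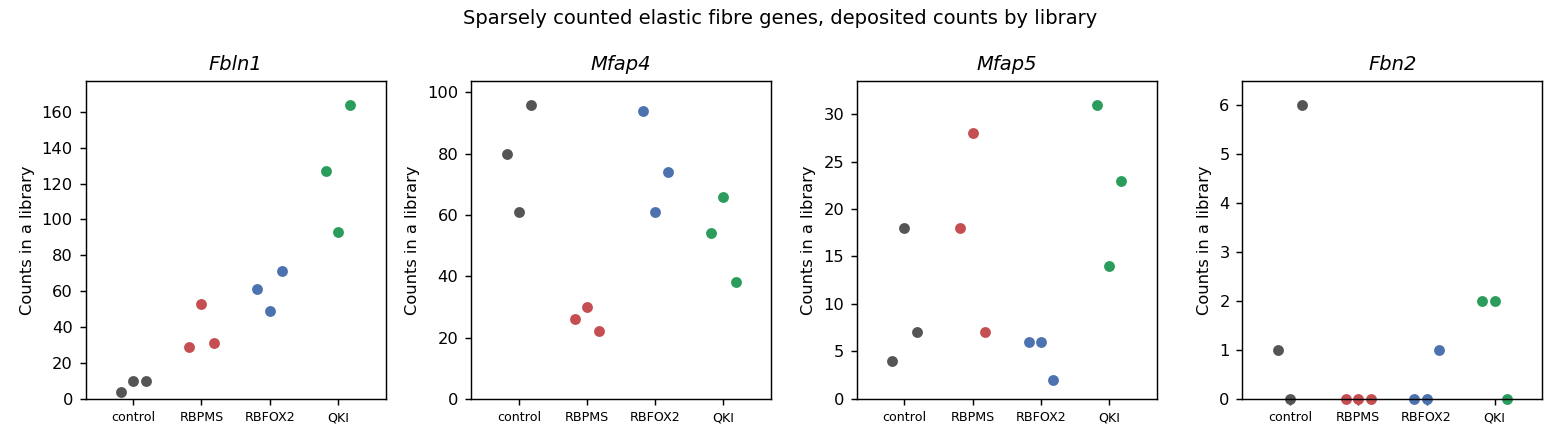
Deposited counts per library (y axis, from 0, with a scale for each gene) of the 4 sparsely counted elastic fibre genes by siRNA group (x axis), 1 dot per library. Fbln1 is at 10 counts or fewer in control and at 29 or more in every knockdown library, Mfap4 is at 30 or fewer in RBPMS knockdown, and Fbn2 exceeds 3 counts only in control 3.

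The 3 fibulins moved in different directions. The RefSeq promoter entries (assembly GRCr8, 250 bases before to 50 after the annotated start, 5′ to 3′ on the gene's strand) are shown for Fbln5, which fell, Fbln2, which rose, and Loxl1, which hardly moved, because these 3 genes contrast in response. Capitals mark matches on either strand to a GC box (GGGCGG) or a TEAD site (CATTCC).
Fbln5: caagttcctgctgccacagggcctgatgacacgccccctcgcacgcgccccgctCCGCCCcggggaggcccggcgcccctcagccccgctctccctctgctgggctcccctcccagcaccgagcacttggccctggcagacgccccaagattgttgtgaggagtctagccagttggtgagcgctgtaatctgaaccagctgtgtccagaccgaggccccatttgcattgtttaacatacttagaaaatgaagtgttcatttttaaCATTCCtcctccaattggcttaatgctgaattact
Fbln2: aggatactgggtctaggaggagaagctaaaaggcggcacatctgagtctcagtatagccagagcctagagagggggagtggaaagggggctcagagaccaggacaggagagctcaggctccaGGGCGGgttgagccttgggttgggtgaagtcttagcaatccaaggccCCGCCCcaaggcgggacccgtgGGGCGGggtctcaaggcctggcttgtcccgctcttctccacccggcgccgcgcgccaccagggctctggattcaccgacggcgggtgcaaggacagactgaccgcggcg
Loxl1: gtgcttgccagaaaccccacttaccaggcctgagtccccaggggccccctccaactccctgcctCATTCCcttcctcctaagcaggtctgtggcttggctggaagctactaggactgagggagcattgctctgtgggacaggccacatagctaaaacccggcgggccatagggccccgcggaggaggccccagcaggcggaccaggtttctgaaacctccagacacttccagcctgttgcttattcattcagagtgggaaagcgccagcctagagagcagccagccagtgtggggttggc

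The Fbln2 sequence held 3 GC boxes, the Fbln5 sequence 1 GC box and 1 TEAD site and the Loxl1 sequence 1 TEAD site, and no match overlapped another. Of 33469 rat promoters of the same length, 33.1% held the GC box letters and 14.2% the TEAD letters. No TATA box (TATAAA, in 14.2% of promoters), AP-1 site (TGANTCA, in 7.33%) or SRF CArG box (1.64%) was found in these windows on either strand. Entries for Fbn1, Fbn2 and Mfap5 matched as well, 6 of the 10 genes in all. Among those, Fbn2 held 1 TEAD site, and Fbn1 and Mfap5 held none of the 5 motifs. Eln, Fbln1, Lox and Mfap4 had no entry.

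Fbln5, whose product links tropoelastin and lysyl oxidase-like enzymes to microfibrils, was at 221, 189 and 296 CPM in control, 52.7, 46.8 and 50.5 CPM after RBPMS knockdown, 71.4, 77.4 and 60.2 CPM after RBFOX2 knockdown and 72.5, 75.0 and 67.0 CPM after QKI knockdown. The lowest control library was more than 2-fold above the highest knockdown library. Fbln5 fell 4.71-fold in RBPMS knockdown (log2 fold change −2.23, SE 0.123, edgeR adjusted p 8.46e-11), 3.38-fold in RBFOX2 knockdown (−1.76, SE 0.120, edgeR adjusted p 1.12e-09) and 3.29-fold in QKI knockdown (−1.72, SE 0.120, edgeR adjusted p 9.02e-10). Without control 3 the log2 fold changes were −2.04, −1.56 and −1.52.

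Fbln2, whose product binds fibrillin microfibrils and elastin in vessel walls, was at 529, 561 and 602 CPM in control and rose in each knockdown. Its levels were 964, 830 and 887 CPM after RBPMS knockdown, 846, 897 and 866 CPM after RBFOX2 knockdown and 657, 751 and 633 CPM after QKI knockdown. No knockdown library overlapped control, and the QKI libraries lay nearest to it. The log2 fold changes were 0.66 (SE 0.0628, edgeR adjusted p 7.86e-08), 0.62 (SE 0.0628, edgeR adjusted p 1.56e-07) and 0.27 (SE 0.0626, edgeR adjusted p 0.00103), so none reached 2-fold.

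Fbln1, which encodes a fibulin found in elastic fibres and basement membranes, was barely counted in control, at 4, 10 and 10 counts. It had 29, 53 and 31 counts after RBPMS knockdown, 61, 49 and 71 after RBFOX2 knockdown and 127, 93 and 164 after QKI knockdown. The groups did not overlap except that RBPMS 2 lay within the range of RBFOX2 knockdown. Its log2 fold change was 2.42 (SE 0.361, edgeR adjusted p 1.77e-05), 2.88 (SE 0.344, edgeR adjusted p 1.32e-06) and 4.09 (SE 0.324, edgeR adjusted p 4.70e-09) in RBPMS, RBFOX2 and QKI knockdown. The level stayed low on the absolute scale, from 0.0577 CPM in control to 1.02 CPM in QKI knockdown, and depths were similar across groups.

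Lox, which encodes the lysyl oxidase that cross-links elastin and collagen, was at 122, 117 and 143 CPM in control. It was at 355, 295 and 309 CPM after RBPMS knockdown, 255, 255 and 260 CPM after RBFOX2 knockdown and 196, 208 and 193 CPM after QKI knockdown. The 4 groups did not overlap at all. Lox rose 2.51-fold in RBPMS knockdown (log2 fold change 1.33, SE 0.0687, edgeR adjusted p 3.88e-11), 2.01-fold in RBFOX2 knockdown (1.01, SE 0.0683, edgeR adjusted p 9.65e-10) and 1.56-fold in QKI knockdown (0.64, SE 0.0681, edgeR adjusted p 2.02e-07). The value in RBFOX2 knockdown sat at the 2-fold limit, and lay between 0.95 (without control 2) and 1.10 (without control 3) when a library was left out.

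Loxl1, the lysyl oxidase-like enzyme most closely tied to elastic fibre upkeep, moved little. It was at 155, 159 and 167 CPM in control, 167, 154 and 159 CPM after RBPMS knockdown, 180, 179 and 177 CPM after RBFOX2 knockdown and 169, 178 and 162 CPM after QKI knockdown. RBPMS and QKI libraries overlapped control, and RBFOX2 libraries lay above it. The log2 fold change was −0.01 in RBPMS knockdown (range of 2 SE −0.09 to 0.07, edgeR adjusted p 0.904) and 0.15 in RBFOX2 knockdown (SE 0.0407, edgeR adjusted p 0.00353), a rise of 1.11-fold. In QKI knockdown it was 0.08 (SE 0.0407, edgeR adjusted p 0.0887), and it passed the limit without control 3 or without QKI 3 (both 0.11, adjusted p 0.0383 and 0.0410), with library totals only (0.17, 0.00138), with a minimum mean of 200 counts (0.12, 0.0143) and in the authors' normalised table (0.12, 0.0148).

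The 3 knockdowns share their control libraries, so their responses were also compared with each other directly in the same fit. Between RBFOX2 and RBPMS knockdown, 2 of the 9 genes differed by more than 2-fold (7.52% of all genes did, in either direction). Mfap4 was higher in RBFOX2 knockdown by 1.31 on the log2 scale (SE 0.294, edgeR adjusted p 0.00105) and Mfap5 was lower (−2.11, SE 0.600, edgeR adjusted p 0.00646). As Mfap5 had 2 to 6 counts in RBFOX2 knockdown and passed the count filter through other groups, it cannot be weighed against that share. Smaller differences were present for Fbn1 (0.33), Fbln5 (0.48) and Loxl1 (0.16), all higher in RBFOX2 knockdown, and for Lox (−0.32), with edgeR adjusted p of 0.00462, 0.00258, 0.00286 and 0.000631. For Eln the difference was 0.19 (range of 2 SE −0.09 to 0.46, edgeR adjusted p 0.258), although its RBFOX2 libraries all lay above its RBPMS libraries. It passed the limit with no filter (0.19, adjusted p 0.00474), in the 6 libraries alone (0.18, 0.0120) and in the authors' normalised table (0.36, 0.0202). For Fbln2 it was −0.04 (−0.16 to 0.09, adjusted p 0.616; 0.06 with library totals only) and for Fbln1 0.46 (−0.09 to 1.00, adjusted p 0.165).

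Eln separated QKI knockdown from the other knockdowns. It was lower in QKI than in RBPMS knockdown by 1.57 on the log2 scale (SE 0.141, edgeR adjusted p 3.33e-08) and lower than in RBFOX2 knockdown by 1.76 (SE 0.141, edgeR adjusted p 5.67e-09). Fbln1 was higher in QKI knockdown than in RBPMS (1.67, SE 0.258, edgeR adjusted p 2.36e-05) and RBFOX2 knockdown (1.22, SE 0.245, edgeR adjusted p 0.000286), the latter 0.99 without QKI 3. With Eln and Fbln1, 2 of the 9 genes differed by more than 2-fold between QKI and RBPMS knockdown (12.2% of all genes). With Mfap5 (2.37, SE 0.586, edgeR adjusted p 0.00173), 3 did so between QKI and RBFOX2 knockdown (18.4% of all genes). Mfap5 had 2 to 6 counts in RBFOX2 knockdown and passed the count filter through other groups, so its difference cannot be weighed against that share. Lox was lower in QKI than in RBPMS (−0.68, edgeR adjusted p 1.26e-07) and RBFOX2 knockdown (−0.36, edgeR adjusted p 0.000132), and so was Fbln2 (−0.39 and −0.35, edgeR adjusted p 3.44e-05 and 8.25e-05).

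Fbln5 gave other values than Eln in these contrasts. It was higher in QKI than in RBPMS knockdown (0.52, SE 0.120, edgeR adjusted p 0.00125), and its difference between QKI and RBFOX2 knockdown was 0.04 (range of 2 SE −0.20 to 0.28, edgeR adjusted p 0.792). Fbn1 was lower in QKI than in RBFOX2 knockdown (−0.39, SE 0.0885, edgeR adjusted p 0.000809), and its difference from RBPMS knockdown was −0.07 (range of 2 SE −0.24 to 0.11, edgeR adjusted p 0.538), which became −0.18 (adjusted p 0.0270) without RBPMS 2 and 0.06 with library totals only. Mfap4 was higher in QKI than in RBPMS knockdown (0.92, SE 0.303, edgeR adjusted p 0.0143), a difference lost without QKI 2 (0.66, adjusted p 0.0890).

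Ratios of counts within a library do not depend on how libraries are scaled, and were read only as changes between groups because no transcript lengths were used here. The ratio of Loxl1 to Lox was 1.27, 1.36 and 1.17 in control and below 1 in every other library, and its mean was 0.501 after RBPMS, 0.697 after RBFOX2 and 0.852 after QKI depletion. The ratio of Fbln5 to Fbln2 was 0.417, 0.337 and 0.492 in control and had means of 0.0560, 0.0800 and 0.105 in the same order of knockdowns. For both ratios the groups of knockdown libraries lay wholly below control. The ratio of Eln to Fbn1, added after the values were seen, was 1.25 ± 0.248 (SD, n = 3) in control and 0.338 ± 0.0196 in QKI knockdown. In RBPMS knockdown it was 0.967 ± 0.103, with RBPMS 2 (1.09) above control 2 (1.04), and in RBFOX2 knockdown it was 0.869 ± 0.0248, below all control libraries. For a ratio in groups of 3, the smallest p an exact permutation can reach is 0.1, so none is given.

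**Figure D4:**
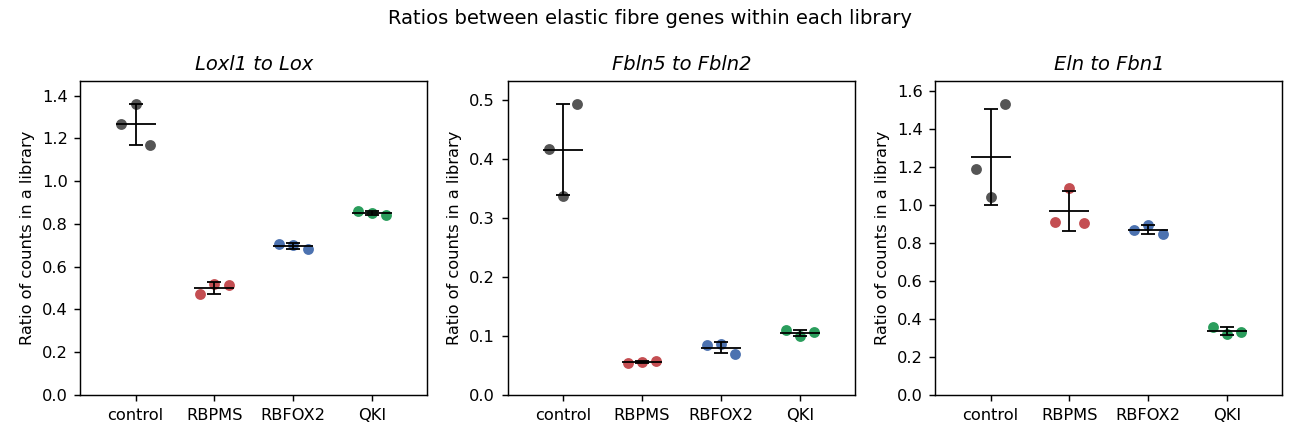
Each dot is the ratio of counts of a pair of elastic fibre genes within a library (y axis, from 0, no unit), by siRNA group (x axis), with the mean and SD of 3 libraries. Loxl1 to Lox and Fbln5 to Fbln2 are lower in all knockdown libraries than in control, and Eln to Fbn1 is lowest in QKI knockdown at 0.322 to 0.360.

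Markers of other cell types were set beside these values. Summed over 5 fibroblast markers, of which Lum and Dcn are matrix genes that smooth muscle cells can also express, levels ran from 48.4 to 88.4 CPM in control, 30.1 to 31.9 CPM for RBPMS, 44.9 to 52.6 CPM for RBFOX2 and 25.9 to 29.3 CPM for QKI depletion. Of these 5 markers, 3, 2 and 4 were lower and 0, 2 and 1 higher than in control in RBPMS, RBFOX2 and QKI knockdown at an adjusted p under 0.05. Over all genes tested, 29.0%, 30.1% and 34.0% were lower and 30.4%, 30.1% and 32.9% higher. Lum was at 49.0, 38.4 and 74.4 CPM in the control libraries, so that control 3 was the highest for it as for Eln. Without control 3, 1 was lower in RBFOX2 knockdown. Their part in the falls of Eln, Fbn1 and Fbln5 was not tested. Summed endothelial markers (5 genes) lay between 5.18 and 10.8 CPM, leukocyte markers (5 genes) between 37.9 and 59.9 CPM and epithelial markers (4 genes) between 29.5 and 73.9 CPM over all libraries, most of the last 2 sums being Cd14 and Krt8. Single markers moved with the knockdowns too. In QKI knockdown Csf1r (log2 fold change 3.17, edgeR adjusted p 8.94e-11), Cd68 (0.93, 6.46e-06), Epcam (2.62, 0.000227), Cdh1 (2.23, 5.59e-05) and Pecam1 (1.27, 0.00570) rose and Cdh5 fell (−1.18, 5.70e-08). Krt8 rose in RBFOX2 knockdown (1.25, edgeR adjusted p 4.61e-12), where Cdh5 (−1.10, 1.72e-07) and Vwf (−0.69, 0.00372) fell. In RBPMS knockdown Csf1r (1.17, 9.36e-05) and Pecam1 (1.70, 0.000571) rose and Cdh5 fell (−0.28, 0.0356). Of 4 tested endothelial markers, 2, 0 and 2 were higher and 1, 2 and 1 lower in RBPMS, RBFOX2 and QKI knockdown. Of 3 tested leukocyte markers, 2 were higher and 0 lower in each. Of 3 tested epithelial markers, 1, 1 and 2 were higher and 0 lower. The limit and the shares of all genes are those given above. The lower sums of smooth muscle markers, with members moving both ways, accompanied the changes of the elastic fibre genes in all 3 knockdowns. The part of any of these markers in the changes of the elastic fibre genes was not tested either.

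Other genes of the pathway were followed as lists. Among 13 tested genes for microfibril-associated proteins, 2 were higher and 9 lower in RBPMS knockdown, 3 higher and 5 lower in RBFOX2 knockdown and 5 higher and 4 lower in QKI knockdown at an adjusted p under 0.05. Over all genes tested, 30.4% were higher and 29.0% lower, 30.1% and 30.1%, and 32.9% and 34.0%, in the same order of knockdowns. The median log2 fold change of the 13 genes was −0.32, −0.06 and −0.06, against 0.01 over all genes in each. Without control 3, 6 were lower in RBPMS knockdown and their median was −0.21. Mfap2, for the microfibril protein MAGP-1, had 23, 16 and 18 counts in control and 2, 1 and 4 in RBPMS knockdown (edgeR adjusted p 0.00277). As 2 of the latter libraries were at or below the floor of 3 counts, no fold is given. Mfap2 passed the count filter through libraries of other groups, control among them, so its fall cannot be weighed against the shares above. Ltbp1, which encodes a latent TGF-β binding protein, rose from 85.9 ± 5.84 to 221 ± 9.11 CPM in RBPMS knockdown (1.36, edgeR adjusted p 1.11e-13) and to 305 ± 3.36 CPM in RBFOX2 knockdown (1.83, edgeR adjusted p 1.38e-15). In RBFOX2 knockdown the next largest change was Adamtsl2, at 1.34 (edgeR adjusted p 0.000166) from 0.566 CPM in control. In QKI knockdown Ltbp2, for a fibrillin-like protein of microfibrils, fell from 599 ± 28.0 to 149 ± 5.31 CPM (−2.01, edgeR adjusted p 1.55e-14), and Thsd4, whose product promotes fibrillin assembly, fell from 1.80 to 0.469 CPM (−1.94, edgeR adjusted p 2.79e-08). Without control 3 the change of Thsd4 was −1.76. Ltbp2 also fell in RBPMS (−0.71, edgeR adjusted p 1.79e-08) and RBFOX2 knockdown (−1.24, 1.34e-11).

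Of the 4 other fibulin family genes, 0 were higher and 2 lower in RBPMS knockdown, 2 higher and 1 lower in RBFOX2 knockdown and 1 higher and 1 lower in QKI knockdown (all genes, 30.4% and 29.0%, 30.1% and 30.1%, and 32.9% and 34.0%). Without RBPMS 2, 2 were higher in RBPMS knockdown, Efemp1 (1.57, edgeR adjusted p 0.0299) and Hmcn1 (1.13, 0.0228), and without control 3, 0 were lower in RBFOX2 knockdown. Fbln7, a cell-adhesive fibulin, fell in RBPMS knockdown (−1.47, edgeR adjusted p 5.89e-09). In RBFOX2 knockdown Efemp1 (fibulin-3) rose from 2 to 12 counts a library to 43 to 76 (2.90, edgeR adjusted p 0.000113), and Hmcn1 (hemicentin-1) rose from 15 to 23 counts to 41 to 63 (1.50, edgeR adjusted p 0.00206). Efemp2, for fibulin-4, which elastic fibre assembly requires, stayed at 236 to 296 CPM as group means, with log2 fold changes of −0.14, 0.04 and 0.19 (edgeR adjusted p 0.00639, 0.464 and 0.000630).

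Among 10 genes of cross-linking and its activation, 5 were higher and 2 lower in RBPMS knockdown, 7 higher and 1 lower in RBFOX2 knockdown and 6 higher and 3 lower in QKI knockdown, with medians of 0.14, 0.36 and 0.26. Over all genes tested, the shares were 30.4% and 29.0%, 30.1% and 30.1%, and 32.9% and 34.0%, and the median was 0.01 in each. Atp7a, the copper pump that loads lysyl oxidases, rose from 28.4 ± 1.22 to 61.6 ± 6.51 CPM in RBPMS knockdown (1.11, edgeR adjusted p 5.10e-11) and to 86.2 ± 1.88 CPM in RBFOX2 knockdown (1.60, edgeR adjusted p 3.46e-13). Tll1 and Tll2 encode tolloid-like proteases of the family that matures lysyl oxidase. Tll1 rose from 2.82 to 16.3 CPM in QKI knockdown (2.53, edgeR adjusted p 3.62e-14), while Tll2 rose from 1 to 13 counts a library to 22 to 49 in RBFOX2 knockdown (2.41, edgeR adjusted p 0.00276). Without control 3 the change of Tll2 was 1.91 (edgeR adjusted p 0.0147). Tll1 fell in RBPMS (−0.83, edgeR adjusted p 1.03e-06) and RBFOX2 knockdown (−1.14, 1.75e-08).

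Of 5 tested genes for proteases that can degrade elastin, 2 were higher and 2 lower in RBPMS knockdown, 4 higher and 1 lower in RBFOX2 knockdown and 4 higher and 0 lower in QKI knockdown (all genes, 30.4% and 29.0%, 30.1% and 30.1%, and 32.9% and 34.0%). Mmp9, a gelatinase that also cleaves elastin, was counted 12 to 16 times in control and 28 to 42, 37 to 71 and 33 to 56 times after depletion of RBPMS, RBFOX2 or QKI, and its log2 fold changes were 1.54, 1.83 and 1.85 (edgeR adjusted p 0.000897, 0.000134 and 0.000104). Mmp12 and Elane, listed with them, had too few counts to test.

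**Figure D5:**
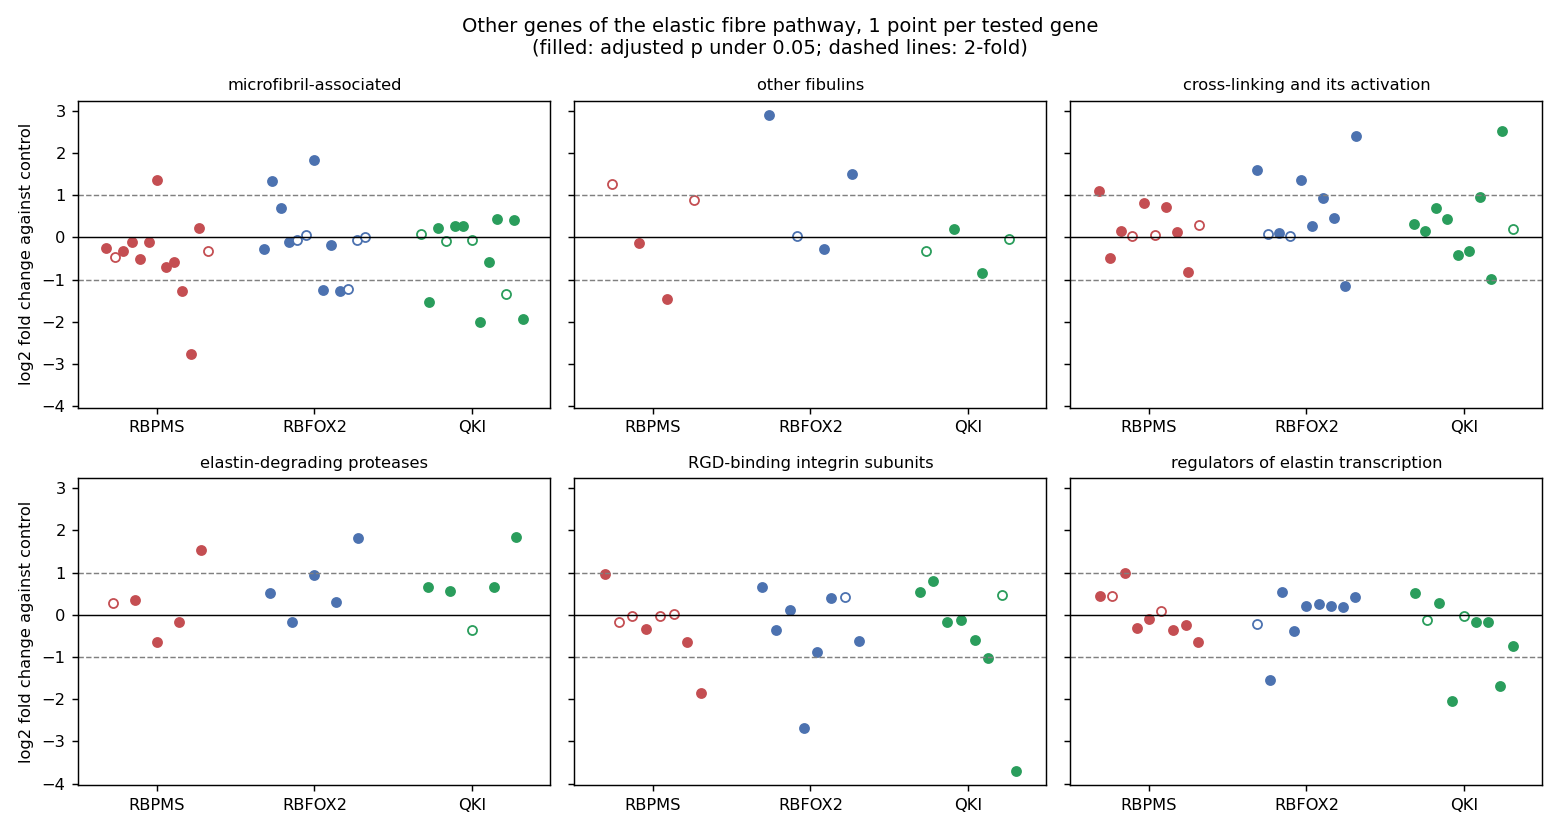
Log2 fold change against control (y axis) of each tested gene in 6 lists of the elastic fibre pathway, by knockdown (x axis); filled points had an adjusted p under 0.05 and dashed lines mark 2-fold. Points lie on both sides of 0 in most lists, and the lowest is Itgb8 in QKI knockdown at −3.70.

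By the likeness of log2 CPM over the 12 libraries, the genes closest to Eln among 10701 compared were Sh3bp5 (Pearson's r 0.991), Rab6b (0.988) and Marcks (0.987). Libraries of a group share their treatment, so these r describe mainly 4 group levels. Sh3bp5 was at 87.5, 61.4, 66.4 and 36.3 CPM in control, RBPMS, RBFOX2 and QKI knockdown, Rab6b at 16.9, 8.50, 11.0 and 3.91 CPM, and Marcks at 52.3, 34.9, 39.2 and 13.9 CPM, each a mean of 3 libraries. All 3 genes, like Eln, were highest in control and lowest in QKI knockdown, an order that their selection by likeness to Eln largely fixes.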

How the data were processed

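The authors deposited raw counts per gene for 33294 rat gene symbols in 12 libraries, and a table of normalised signal for 22320 symbols. Per the labels, the library kit was a directional one with poly(A) selection. By the account in the methods of the study, paired-end reads were subsampled to a common depth and aligned with STAR to mRatBN7.2 and assigned to RefSeq genes with featureCounts, and the authors made the signal table from these with noisyR and quantile normalisation. The submitters' processing notes name STAR 2.5.2a, edgeR 3.28.1 and DESeq2 1.30.0, and the study's methods name other versions. The counting of multi-mapping reads, and whether it used strand, are not given in the sources used here, so reads that Fbn1 and Fbn2 or other related genes share are uncertain, as are those of overlapping antisense genes. Of the deposited counts from 1 to 19, 68.1% were even, against 50.9% of those above 1000, and the deposited totals exceed the depth to which the methods say reads were subsampled. Both reads of a fragment may thus have been counted, so that a printed count need not be 1 fragment, and a fit on halved counts was run for this reason.

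Groups and replicate numbers came from the labels. The study describes the replicates as biological, while the labels do not say which cultures they came from, so p-values measure the spread between these libraries. Chi-square over its degrees of freedom for replicate pairs (genes with at least 40 counts) lay between 4.64 and 57.8, so none was a duplicate. The test was edgeR 4.0.16 under R 4.3.3 (filterByExpr by group, TMM, glmQLFit and glmQLFTest, two-sided, all 12 libraries, no replicate block), and the filter kept 18438 genes with 99.99% of counts. P-values were adjusted by Benjamini-Hochberg over all of them. Genes sparse in control, among them Fbln1, Mfap5, Efemp1, Tll2 and Epcam, passed the filter through knockdown libraries. Mfap2, sparse in RBPMS knockdown, passed it through libraries of other groups, control among them. A gene counted as changed by more than 2-fold where adjusted p was under 0.05 and the log2 fold change beyond 1 in size. Levels are CPM with the SD of 3 libraries, the SE is the log2 fold change over the square root of F, and the range of 2 SE is given as an interval. In simulated counts for RBPMS knockdown against control (18155 genes), 82.0% of 100 genes simulated with a log2 fold change of 1 in size and 92.9% of 99 with a change of 2 were recovered, and 0.0446% of unchanged genes were called. There 17956 genes were unchanged, whereas most genes tested passed in the real comparison. The simulated rates therefore check the code and need not hold for these data.

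Totals of 111 to 152 M counts set the precision, and the floor of 3 counts a library covers counting error only. The alternatives were RLE size factors, library totals only, no filter, a mean of at least 200 counts, the replicate block, DESeq2 1.42.0, limma 3.58.1 on log2 of the signal table with a pseudocount of 1, each comparison's 6 libraries alone, and each replicate left out. The counts of the pathway and marker lists without control 3 or RBPMS 2 were added after seeing the data. Named genes are the elastic fibre genes, the siRNA targets, in each pathway list and knockdown the 2 largest changes past both limits, and the 3 genes most like Eln (at least 5 CPM). Efemp2, markers and some genes raised in control 3 were named beside this rule. The genes and lists were chosen with earlier results of these data known. Promoter sequences are from RefSeq (GRCr8), not the build the authors used, and coordinates are left out. Transcript lengths, proteins and splicing were not analysed here.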

Additional observations from a re-analysis of the deposited data

How the results depend on the processing

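For single genes, settings other than a left-out replicate left the call as it was in 447 gene-by-comparison values, put 15 newly past the limit, turned the sign of 4 and removed no call. Leaving out a library left 300 values as they were, put 11 newly past the limit, took 5 out (Mfap5 in QKI knockdown under 4 libraries, and Mfap4 between QKI and RBPMS knockdown) and turned the sign of 8. None of the values that changed sign was past the limit in either fit. With library totals only, the difference between RBFOX2 and RBPMS knockdown became 0.06 for Fbln2 and that between QKI and RBPMS knockdown 0.06 for Fbn1, and on the authors' normalised signal these were 0.15 and 0.11. Leaving out a library gave ranges of −0.04 to 0.02 for Loxl1 in RBPMS knockdown, −0.30 to 0.06 for Mfap4 in RBFOX2 knockdown, −0.09 to 0.02 for Fbln2 between RBFOX2 and RBPMS knockdown, −0.18 to 0.03 for Fbn1 and −0.09 to 0.61 for Mfap5 between QKI and RBPMS knockdown, and −0.05 to 0.13 for Fbln5 between QKI and RBFOX2 knockdown.

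A filter at a mean of 200 counts removes Fbln1, Mfap4 and Mfap5 by construction, so that the genes past 2-fold became 2 in RBPMS and 2 in QKI knockdown, and 0, 1 and 1 between RBFOX2 and RBPMS, QKI and RBPMS, and QKI and RBFOX2 knockdown. It takes Fbln1 out of the count in RBFOX2 knockdown as well. Between RBFOX2 and RBPMS knockdown the count was 1 with the authors' table, where Mfap4 was at 0.99, and 1 in the 6 libraries alone, where Mfap5 did not pass the filter. With library totals only, the median log2 fold change of all genes was 0.11 between RBFOX2 and RBPMS and 0.12 between QKI and RBPMS knockdown (0.01 and −0.01 with TMM), where 63.4% and 61.9% of calls were then higher, against 49.2% and 47.5% with TMM. Replicate numbers did not pair the libraries: of 18 same-numbered pairs 0 had a correlation of deviations over 0.1 (range −0.05 to 0.04), and 2 of 12 libraries correlated best with their own number. With the replicate block the counts past 2-fold were 4, 3 and 4 in RBPMS, RBFOX2 and QKI knockdown, as without it, and Eln in QKI knockdown was at −2.48. Counts limit Fbn2 altogether and leave wide errors for Mfap5.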

Other observations

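Among 8 tested genes for integrin subunits whose dimers bind RGD sites, as found in fibrillins and fibulin-5, 1 was higher and 3 lower in RBPMS knockdown, 3 higher and 4 lower in RBFOX2 knockdown and 2 higher and 5 lower in QKI knockdown at an edgeR adjusted p under 0.05 (all genes tested, 30.4% higher and 29.0% lower, 30.1% and 30.1%, and 32.9% and 34.0%). Itgb8, whose product with the αv subunit activates latent TGF-β, was at 42.8 ± 3.16 CPM (SD, n = 3) in control, 11.9 ± 1.69 CPM in RBPMS knockdown and 3.32 ± 0.502 CPM in QKI knockdown, with log2 fold changes of −1.86 (edgeR adjusted p 2.05e-11) and −3.70 (4.71e-15). Itgb1, the common β subunit, fell from 2150 ± 28.3 CPM in control to 335 ± 6.99 CPM in RBFOX2 knockdown (−2.68, edgeR adjusted p 6.90e-19). Itgb5 fell from 815 ± 21.4 to 402 ± 9.02 CPM in QKI knockdown (−1.02, edgeR adjusted p 2.52e-14).

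Of 9 tested genes for factors known to regulate elastin transcription, 2 were higher and 5 lower in RBPMS knockdown, 6 higher and 2 lower in RBFOX2 knockdown and 2 higher and 5 lower in QKI knockdown, beside the same shares of all genes. Nfib, for a nuclear factor I protein, fell from 50.4 ± 2.90 to 12.2 ± 0.537 CPM (−2.04, edgeR adjusted p 1.65e-15) and Tgfb2 from 142 ± 17.3 to 44.3 ± 1.38 CPM (−1.68, edgeR adjusted p 5.40e-13) in QKI knockdown. In RBPMS and RBFOX2 knockdown Nfib was at −0.31 and −0.38 (edgeR adjusted p 3.35e-05 and 2.76e-06). Tgfb2 was at −0.25 in RBPMS knockdown and at 0.19, a rise, in RBFOX2 knockdown (edgeR adjusted p 0.00326 and 0.021). Fosl1, an AP-1 subunit, rose from 119 ± 5.69 to 237 ± 15.3 CPM in RBPMS knockdown (1.00, edgeR adjusted p 2.45e-11). Fgf2 fell from 47 to 56 counts a library in control to 12 to 24 in RBFOX2 knockdown (−1.54, edgeR adjusted p 0.000349). Whether any of these changes bears on Eln was not tested.

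Control 3 differed from control 1 and control 2 in other genes as well. Ranked by that difference among 10707 genes, Notch3 (68.4, 60.6 and 97.7 CPM in the 3 control libraries), Angpt2 (29.8, 24.2 and 40.6 CPM) and Svep1 (14.6, 13.3 and 20.4 CPM) were also among the 12 most raised, with Eln and Fbln5. These genes were named after their values were seen.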
